A study of Mus musculus with 3 samples.

Results

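The Cyp4a omega-hydroxylases and their relative Cyp4b1 were followed in single cells of the mouse kidney. The set held 7 of the 33696 genes counted, namely Cyp4a10, Cyp4a12a, Cyp4a12b, Cyp4a14, Cyp4a31, Cyp4a32 and Cyp4b1, and all were matched by symbol. They were chosen as a gene family after their differences between these libraries were known, so their ratios are given as a description, with no test. The kidneys came from male mice in 3 groups: young controls labelled 3/4 months old, aged animals of 20 months given vehicle, and aged animals of 20 months given D+Q, the senolytic treatment named by the study. Dissociated cells were counted with a droplet kit that reads the 3′ ends of polyadenylated transcripts, with 1 library per group. The number of animals behind a library was not given in the sources used here, so age, treatment and the individual library cannot be told apart. Intervals in parentheses are exact 95% limits for counting error in a library and hold no variation between animals.

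CYP4A enzymes are cytochrome P450 proteins of the endoplasmic reticulum that place a hydroxyl group on the last carbon of a fatty acid. The product can be oxidised on to a dicarboxylic acid that peroxisomes shorten, and omega-hydroxylated arachidonic acid, 20-HETE, acts on renal vessels and on salt transport in the tubule. In mouse kidney the genes are known from the proximal tubule: Cyp4a10 and Cyp4a14 are classical targets of the fatty acid receptor PPARA, while Cyp4a12a is androgen-dependent and encodes the main 20-HETE synthase of males. CYP4B1 hydroxylates shorter fatty acids and foreign compounds.

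All 7 genes lie in one stretch of mouse chromosome 4, chr4:115299046-115647723 in GRCm38 with GENCODE M21 annotation. Coding sequences of Cyp4a12a and Cyp4a12b were 98.5% identical. Cyp4a10 was 97.2% identical to Cyp4a32 and 96.6% identical to Cyp4a31, but 80.2% identical to Cyp4a12a and 76.1% to Cyp4a14. The last 60 coding bases, stop codon included, are shown in the RNA sense because they let a reader see how closely the copies resemble each other. Except in Cyp4a32, 521 to 943 transcript bases follow them, so they lie upstream of the last 500 bases compared afterwards. Capitals mark bases that differ from Cyp4a10.
Cyp4a10: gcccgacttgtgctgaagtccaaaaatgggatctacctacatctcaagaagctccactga
Cyp4a31: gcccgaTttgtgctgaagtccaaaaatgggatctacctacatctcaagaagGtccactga
Cyp4a32: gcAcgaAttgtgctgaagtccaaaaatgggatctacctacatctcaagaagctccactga
Cyp4a14: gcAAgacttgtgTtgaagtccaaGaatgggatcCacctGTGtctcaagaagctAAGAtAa
Cyp4a12a: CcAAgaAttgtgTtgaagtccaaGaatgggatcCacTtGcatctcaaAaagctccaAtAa
Cyp4a12b: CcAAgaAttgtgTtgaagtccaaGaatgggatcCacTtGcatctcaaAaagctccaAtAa
Cyp4a31 and Cyp4a32 each differ from Cyp4a10 at 2 of these bases, Cyp4a14 at 13, and the Cyp4a12 pair at the same 12. Over the last 500 transcript bases, Cyp4a12a and Cyp4a12b shared 37.0% of their 50-base words, and Cyp4a10 and Cyp4a31 shared 5.99%. Cyp4a14 and Cyp4b1 shared none with any other member. Of the words in Cyp4a32, 55.7% occurred in Cyp4a10, and its annotated transcript has 0 bases after the stop codon. Counts of Cyp4a12a against Cyp4a12b, and of Cyp4a32 against Cyp4a10 and Cyp4a31, are therefore uncertain. Those of Cyp4a14 and Cyp4b1 are least open to mixing.

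The deposited matrices held 8615 barcodes for young, 6027 for aged vehicle and 8037 for aged D+Q, with median counts of 2391, 1883 and 2299 per barcode. After barcodes with over 50% mitochondrial counts and the highest doublet scores were set aside, 7734, 5701 and 7424 cells were kept. Libraries shared 28 to 38 barcodes pair by pair. Levels are given in CPM, a gene's counts scaled to a common total of all counts in the same cells. Xist stayed at 1.07 to 1.75 CPM and the Y-linked Ddx3y at 152 to 157. A marker gate gave 546, 913 and 548 proximal tubule-like cells, the largest number from aged vehicle, the library with the lowest median counts. It allows at most 1 count from the markers of any other class, so it can keep more cells where depth is low. Of its 10 leading genes by fold, 0 were its own markers. Of the gated cells, 1979 of 2007 also lay in proximal tubule-like clusters. The clusters, built without the 7 genes, gave 5147, 4143 and 5383 such cells. Summed proximal tubule markers in these clusters stood at 19276, 18757 and 19447 CPM. The name is less sure for cluster 13, with 310, 260 and 333 cells, led by Usp29, Ube2cbp and 1700054A03Rik. Its mean marker level, relative to the highest cluster, was 0.48 for proximal tubule and 0.35 for thick ascending limb. Its cells are counted among the clustered proximal tubule-like cells throughout. The gate written for thick ascending limb failed, since 4443 of its 5795 cells lay in proximal tubule-like clusters, so other cell types are described from clusters.

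Cyp4a14 was far lower in the aged vehicle library, Cyp4a10 and Cyp4a31 were moderately lower, and Cyp4a12a was higher. In gated cells 6 of the 7 genes were abundant enough to compare (30 or more counts summed across libraries, and 5 CPM or more on average). Of these, 1 was at least 1.5-fold higher in aged vehicle than in young and 3 were at least 1.5-fold lower. Over 9857 genes, 12% were that much higher and 8.35% that much lower. The genes were chosen on these contrasts, so nothing is read from their count. Their median log2 ratio was -0.46, beside 0.08 over all genes. In clustered cells the members again gave 1 higher and 3 lower, beside 4.79% and 3.28% of all genes. Cyp4a32 stayed under the abundance limit in either population.

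**Figure D1:**
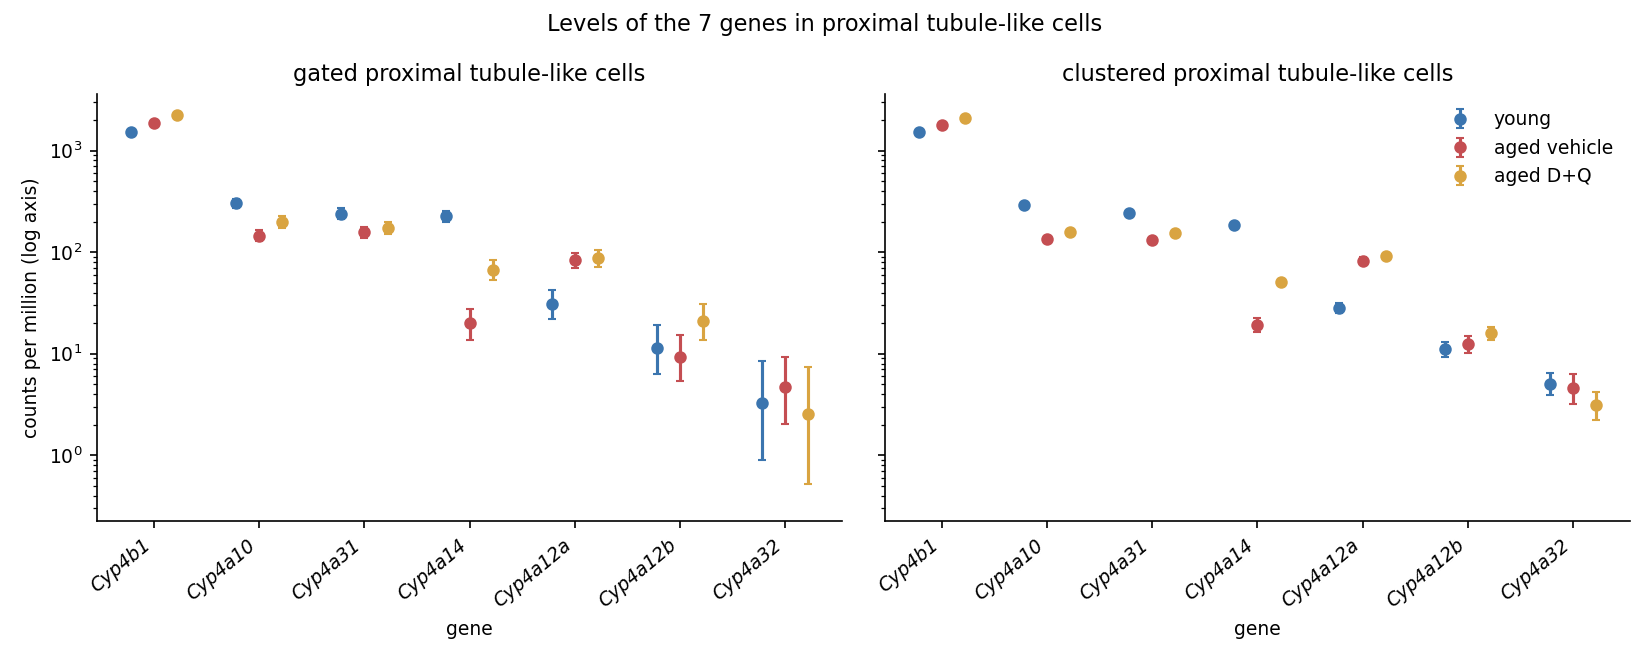
Points give CPM on a log axis for each gene and library in gated (left) and clustered (right) proximal tubule-like cells, and bars the exact 95% counting interval. Cyp4a14 is at 224 in young and 19.9 in aged vehicle gated cells, and Cyp4a12a at 31.1 and 83.1. Heights are compared within a gene, since counts were not scaled per length.

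Cyp4a14 stood at 224 CPM in young gated cells (199 to 253), 19.9 in aged vehicle (13.8 to 27.8) and 66.8 in aged D+Q (52.9 to 83.2). Young was highest, aged vehicle lowest, and no intervals overlapped. The log2 ratio of aged vehicle to young was -3.48 (-4.06 to -2.98), an 11.1-fold lower level with 0.5 counts added to each library. D+Q lay above vehicle by a log2 ratio of 1.73 (1.15 to 2.37) and below young at -1.74 (-2.13 to -1.38). In the larger clustered population Cyp4a14 gave 183, 19.2 and 50.8 CPM for young, aged vehicle and aged D+Q. Its log2 ratios there were -3.25 and 1.40 for vehicle against young and D+Q against vehicle.

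Cyp4a10 measured 303 CPM in young gated cells (273 to 336), 146 in aged vehicle (128 to 165) and 199 in aged D+Q (175 to 227). The order was that of Cyp4a14, on a smaller scale: the log2 ratio of aged vehicle to young was -1.06 (-1.29 to -0.82), and that of D+Q to vehicle 0.45 (0.19 to 0.72). Cyp4a31, its nearest measured relative, measured 240, 156 and 174 CPM in the same order. Its aged vehicle level was lower than young, with a log2 ratio of -0.62 (-0.86 to -0.38). Among gated cells of the S1 segment alone, Cyp4a31 gave -0.09 (-0.69 to 0.50), whereas clustered S1 cells held 91.1 CPM in vehicle and 182 in young. For Cyp4a31 the D+Q and vehicle intervals overlapped, with a log2 ratio of 0.16 (-0.11 to 0.42). In clustered cells Cyp4a31 was 133 in vehicle (125 to 141) and 153 in D+Q (146 to 160), without overlap. On the gated S1 side the sign was opposite, at -0.63 (-1.41 to 0.10).

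Cyp4a12a differed in the other direction. It measured 31.1 CPM in young gated cells (22 to 42.7), 83.1 in aged vehicle (70 to 97.9) and 87.0 in aged D+Q (71 to 106). Both aged libraries lay above young, with log2 ratios of 1.40 (0.89 to 1.97) and 1.47 (0.93 to 2.06). The aged libraries differed by a log2 ratio of 0.07 (-0.31 to 0.44). Clustered cells gave 28.2, 82.7 and 92.3 CPM.

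Its near-identical copy Cyp4a12b was counted 14, 16 and 25 times in gated cells, or 11.5, 9.36 and 21.1 CPM. D+Q exceeded vehicle by a log2 ratio of 1.16 (0.21 to 2.18) in gated cells, against 0.34 (0.00 to 0.70) in clustered cells. The vehicle-to-young ratio of Cyp4a12b was -0.30 (-1.42 to 0.85) gated and 0.17 (-0.21 to 0.55) clustered, so its direction was not settled. Cyp4a32 had 4, 8 and 3 counts in gated cells and 66, 38 and 41 in clustered cells. At 3.11 to 5.07 CPM in clusters, its intervals overlapped between young and vehicle, and D+Q lay below young by a log2 ratio of -0.70 (-1.30 to -0.12).

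Cyp4b1 was lowest in young, higher in vehicle and highest in D+Q. Gated cells gave 1525 CPM in young (1457 to 1596), 1867 in aged vehicle (1803 to 1933) and 2261 in aged D+Q (2176 to 2348), with no overlap. The log2 ratios were 0.29 (0.21 to 0.38) for vehicle against young, 0.28 (0.20 to 0.35) for D+Q against vehicle and 0.57 for D+Q against young. None reached 1.5-fold. These narrow intervals rest on 1862 to 3192 counts and leave out differences between animals.

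Summed over the 6 Cyp4a genes, gated cells held 813 CPM in young (763 to 866), 419 in aged vehicle (389 to 451) and 551 in aged D+Q (509 to 595). The family sum was lower in aged vehicle than in young by a log2 ratio of -0.96 (-1.10 to -0.82), and higher in D+Q than in vehicle by 0.40 (0.24 to 0.55). The make-up of the family differed as well. Cyp4a14 supplied 27.6% of gated family counts in young (24.8 to 30.5), 4.75% in aged vehicle (3.31 to 6.57) and 12.1% in aged D+Q (9.71 to 14.9). Cyp4a12a supplied 3.83%, 19.8% and 15.8%. The Cyp4a10 share stayed between 34.8% and 37.3%.

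For D+Q against vehicle, 2 of 6 measured members were at least 1.5-fold higher (Cyp4a14 and Cyp4a12b) and 0 were lower. All genes gave 6.91% higher and 10.8% lower. With median-of-ratios scaling the gated split over all genes turned from 681 higher and 1067 lower to 903 and 848, while the same 2 members passed. In clustered cells Cyp4a14 alone was higher by that fold and 0 members were lower, beside 1.78% and 2.47% of all genes. For D+Q against young, 2 members were higher (Cyp4a12a and Cyp4a12b) and 2 lower (Cyp4a14 and Cyp4a10), where all genes gave 8.56% and 9.31%. The Cyp4a12b intervals overlapped, at 13.7 to 31.2 CPM in D+Q from 25 counts and 6.27 to 19.2 in young from 14. In clustered cells 1 member was higher and 3 were lower, beside 2.66% of genes in each direction. These comparisons share libraries and are not independent.

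**Figure D2:**
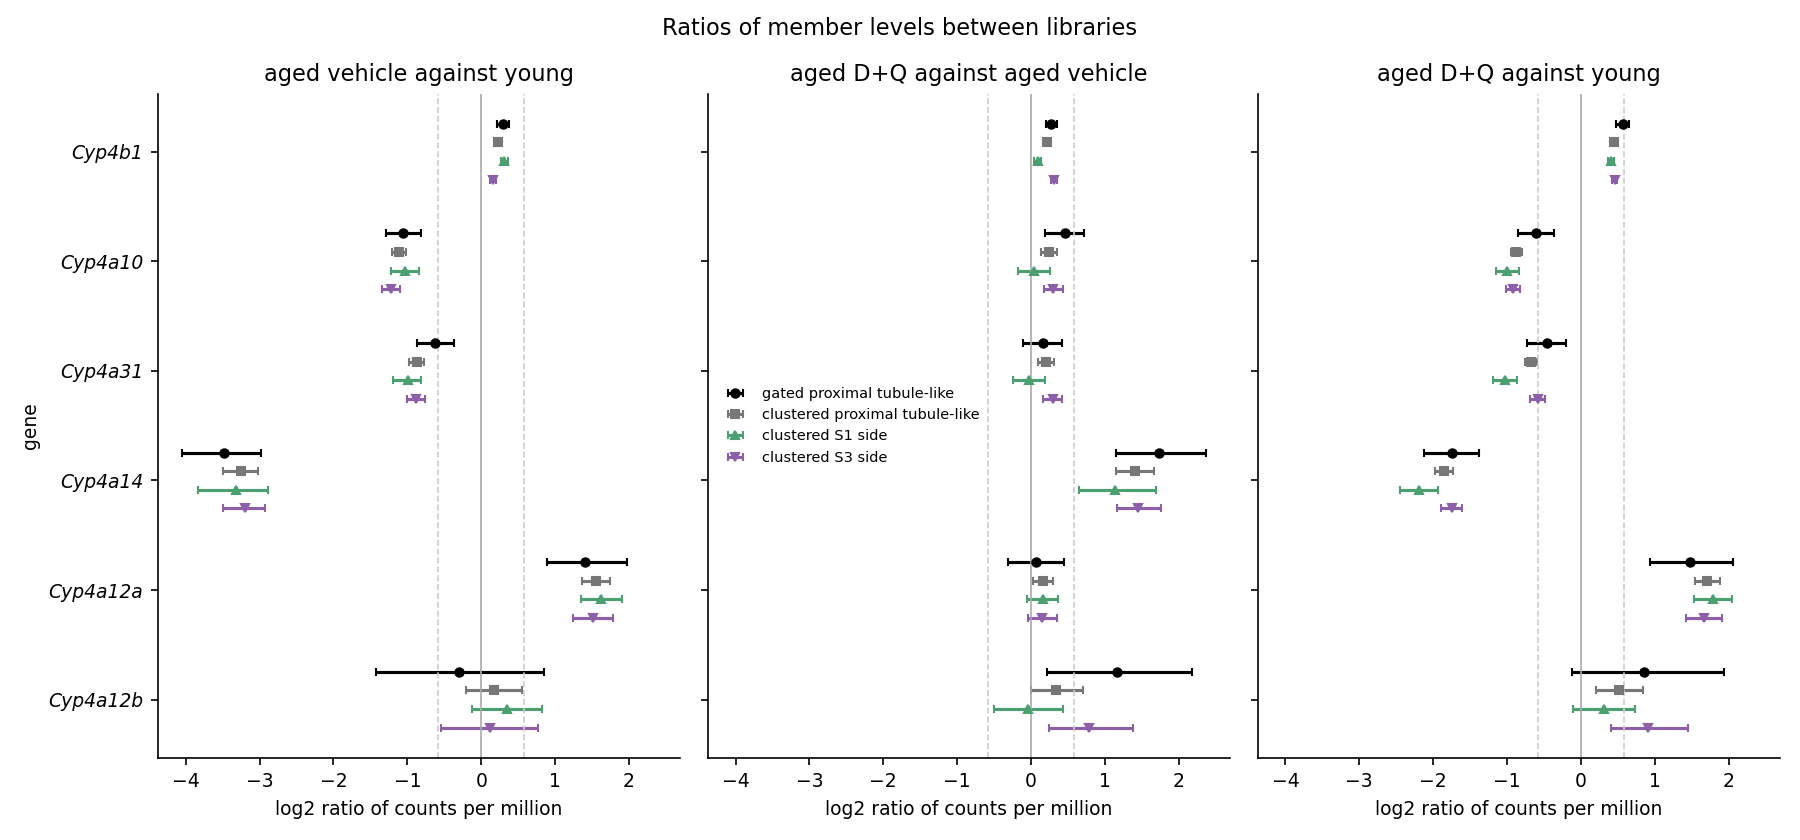
Each panel shows log2 ratios of CPM for 1 pair of libraries, with 95% counting intervals, in gated cells, in clustered cells and in the S1 and S3 sides of the clustered cells. Dashed lines stand at 1.5-fold, and Cyp4a32 is left out as too scarce. In the left panel Cyp4a14 lies below -3 and Cyp4a12a above 1 in all 4 populations.

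The proximal tubule runs from the S1 segment at the glomerulus to the straight S3 segment, and cells were placed on an S1 or S3 side by which segment's markers had more counts, with ties left undecided. In young clustered cells, Cyp4a14 was 129 CPM on the S1 side (120 to 139) and 221 on the S3 side (210 to 233). Cyp4a10 was 187 and 378, and Cyp4a31 was 182 and 294. These 3 genes were thus higher on the S3 side of the clustered cells. In the fewer gated cells Cyp4a14 was 224 on the S1 side (177 to 279) and 226 on the S3 side (195 to 261), with no such excess. Cyp4a12b was 16.0 on the S1 side (12.9 to 19.7) and 7.04 on the S3 side (5.19 to 9.34), the reverse order. Gated young cells gave Cyp4a12b 3 counts on the S1 side, 8.60 CPM, and 11 on the S3 side, 13.4 CPM, too few to order. Clustered Cyp4a12a on the S1 and S3 sides was 29.8 and 26.1 in young and 92.1 and 74.4 in aged vehicle, with overlapping intervals in each. In aged D+Q it was 103 (94.2 to 112) and 82.9 (76.5 to 89.6). Gated sides overlapped in young, at 45.9 and 26.7. They did not in aged vehicle, at 133 (94.5 to 182) and 72.4 (58.8 to 88.2), or in aged D+Q, at 142 (99.3 to 196) and 69.7 (53.5 to 89.4).

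Aged vehicle against young had the same direction on either side for the main members. For Cyp4a14 the log2 ratio was -3.33 on the S1 side and -3.20 on the S3 side. For Cyp4a12a it was 1.63 and 1.51, and for Cyp4a10 -1.03 and -1.22. For D+Q against vehicle, Cyp4a10 gave 0.04 (-0.17 to 0.25) on the S1 side and 0.30 (0.18 to 0.43) on the S3 side of clustered cells. In gated cells the order of the sides was the other way, at 0.77 (0.04 to 1.54) and 0.41 (0.12 to 0.70) for Cyp4a10, so no difference between segments is read from it. Cyp4b1 gave 0.09 and 0.31 in clustered cells and 0.04 and 0.31 in gated cells. The mix of segments moved with the groups, as 45.9%, 38.7% and 39.6% of clustered cells lay on the S1 side in young, aged vehicle and aged D+Q. Among gated cells these shares were 30.0%, 17.4% and 23.5%. The S3 markers Cyp7b1 and Slc7a13 were themselves higher in aged vehicle than in young gated cells, with log2 ratios of 0.99 and 0.49, and their part in the placement was not tested.

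Among the 8 proximal tubule-like clusters with at least 50 cells in every library, Cyp4a14 was lower in aged vehicle than in young in 7, each with an interval below 0. The eighth, cluster 25, held 2 counts of Cyp4a14 in either library. The median of the 8 log2 ratios was -2.82. Cyp4a12a was higher in all 8, and 7 intervals lay above 0, with a median of 1.75. Cyp4a10 was lower in 7 and Cyp4b1 higher in 7. The 8 clusters are parts of the same 3 libraries, so their agreement is not independent.

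Young Cyp4a14 counts were concentrated. Cluster 8, whose leading genes included Cyp4a14 and Ehhadh, held 32.0% of young clustered cells and 60.0% of their Cyp4a14 counts. It held 1649 young cells but 99 aged vehicle and 399 aged D+Q cells. Within cluster 8, Cyp4a14 was 334 CPM in young, 26.4 in aged vehicle from 5 counts, and 106 in aged D+Q. In cluster 9, which held 349, 1573 and 1744 cells, Cyp4a14 was 179, 20.8 and 75.4. The lower Cyp4a14 level of aged vehicle was thus seen within these clusters too, which share the background RNA of their library. Endothelial-like cells, described below, had the same direction, and the part of background RNA was not tested. Clusters were made from genes that differ between the libraries, so their sizes are given as counts alone.

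Cyp4a12a and Cyp4b1 peaked elsewhere. Cluster 5, with a median mitochondrial share of 38.7%, had the highest levels of both. Cyp4a12a there was 91.8, 305 and 288 CPM for young, aged vehicle and aged D+Q, and Cyp4b1 was 3879, 3274 and 4803. Cluster 5 was the 1 cluster of the 8 in which Cyp4b1 was lower in aged vehicle than in young, by a log2 ratio of -0.24. The part played by RNA quality in these cells was not tested.

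**Figure D3:**
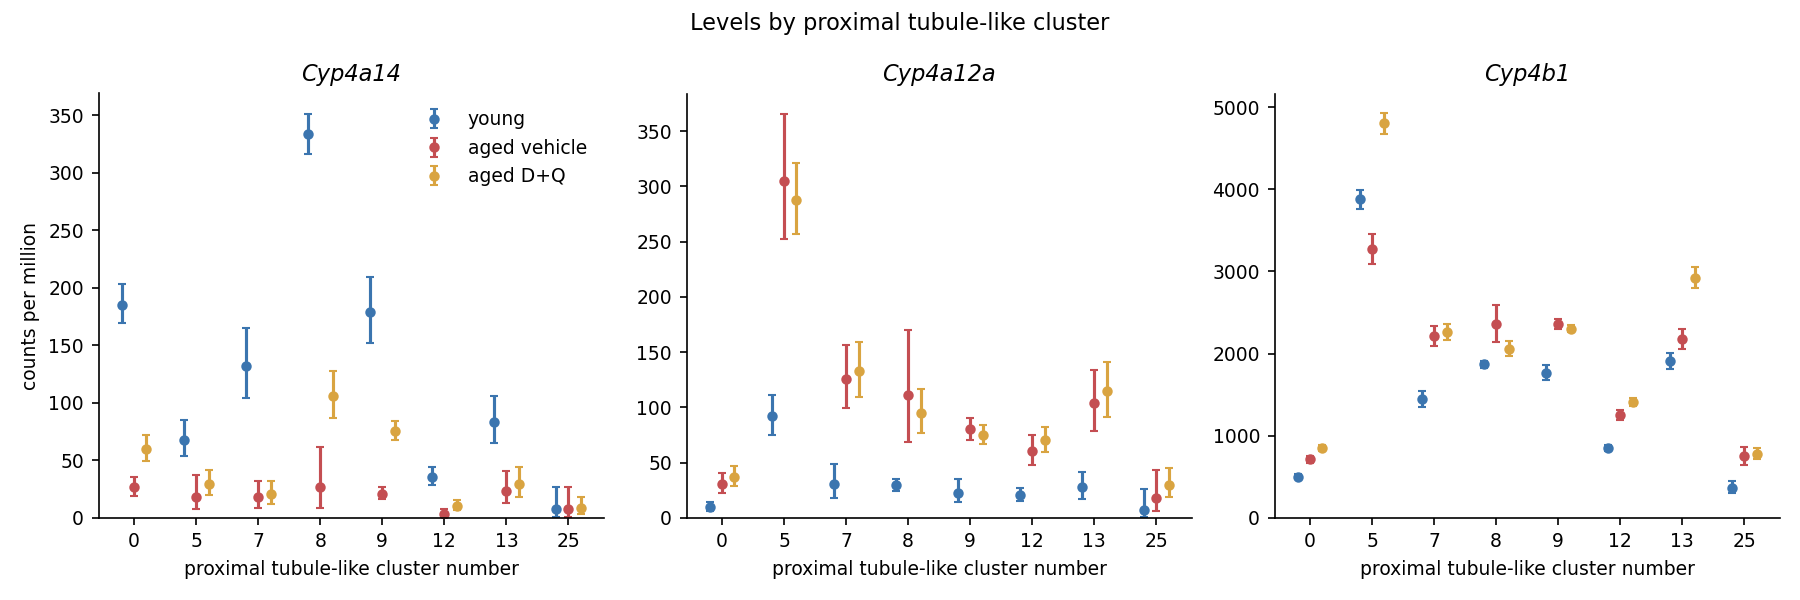
CPM of Cyp4a14, Cyp4a12a and Cyp4b1 are plotted for the 8 proximal tubule-like clusters with at least 50 cells in each library, with 95% counting intervals. Cluster 8 stands highest for Cyp4a14 in young at 334, and cluster 5 highest for Cyp4a12a and Cyp4b1.

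Cells were thinned to 1000 counts each to compare shares of cells with a transcript. A Cyp4a14 count was found in 11.1% of young clustered proximal tubule-like cells (10.3 to 12.0), 1.33% of aged vehicle (1.00 to 1.72) and 3.49% of aged D+Q (3.02 to 4.02). Without thinning the shares were 19.2%, 2.78% and 7.17%. For Cyp4a12a the thinned shares were 2.45%, 7.31% and 8.32%, and for Cyp4b1 66.1%, 74.2% and 78.7%. Any Cyp4a gene was found in 44.6%, 28.1% and 34.1%. Of young cells with Cyp4a14, 36.1% had 2 or more counts, against 20.0% in aged vehicle and 20.2% in aged D+Q. For the more abundant Cyp4b1 such shares were 59.9% in young and 68.5% in aged D+Q. A share of this kind rises with the level of a gene, so no clumping is read from it.

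Endothelial-like cells, which should lack these genes, held them as well. Their thinned Cyp4a14 shares were 8.78% in young (6.70 to 11.3), 1.11% in aged vehicle (0.30 to 2.81) and 2.35% in aged D+Q (1.18 to 4.16). These intervals overlap those of the proximal tubule-like cells in each library, so the share of cells with Cyp4a14 did not stand clear of the share in endothelial-like cells. Without thinning, 21.2% of young endothelial-like cells had a Cyp4a14 count, at a median depth of 2753 counts per cell against 2359 in young proximal tubule-like cells. In aged vehicle these depths were 2598 and 1806, and in aged D+Q 2684 and 2290. Cells with 2 or more Cyp4a14 counts after thinning made up 4.02% of young proximal tubule-like and 1.41% of young endothelial-like cells. The Cyp4a14 level was 183 CPM (176 to 191) in the former and 140 (125 to 156) in the latter. Cyp4b1 was found in 52.7%, 63.4% and 62.9% of endothelial-like cells, below the proximal tubule-like shares in each library. The vehicle-to-young difference was present in endothelial-like cells too, with log2 ratios of -2.95 (-3.68 to -2.36) for Cyp4a14 and 1.81 (1.21 to 2.45) for Cyp4a12a.

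Across 9 classes outside the proximal tubule with at least 20 cells in each library, the level of Cyp4b1 had a median of 52.0% of its proximal tubule-like level in young, 62.0% in aged vehicle and 53.6% in aged D+Q. The summed proximal tubule markers gave 54.2%, 63.9% and 44.3%, and the Cyp4a family 52.7%, 61.7% and 50.6%. Cyp4a14 alone had medians of 51.2%, 42.7% and 25.9%, below the summed markers in each library. These medians fell on classes with 100, 3 and 5 Cyp4a14 counts, so the aged values are uncertain. Endothelial-like cells, with 316, 22 and 52 counts, gave 76.4%, 92.3% and 66.6% for Cyp4a14. The summed markers there were lower, at 65.6%, 78.5% and 58.5%. Single marker transcripts varied as much: Slc34a1, the phosphate transporter, gave 57.4%, 68.6% and 34.7%, and the abundant tubule transcript Kap 78.2%, 57.5% and 88.4%. Counts of Cyp4b1, the summed Cyp4a family and tubule markers were thus present in all 9 classes of each library, and the part of free RNA in the values of any class was not tested.

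**Figure D4:**
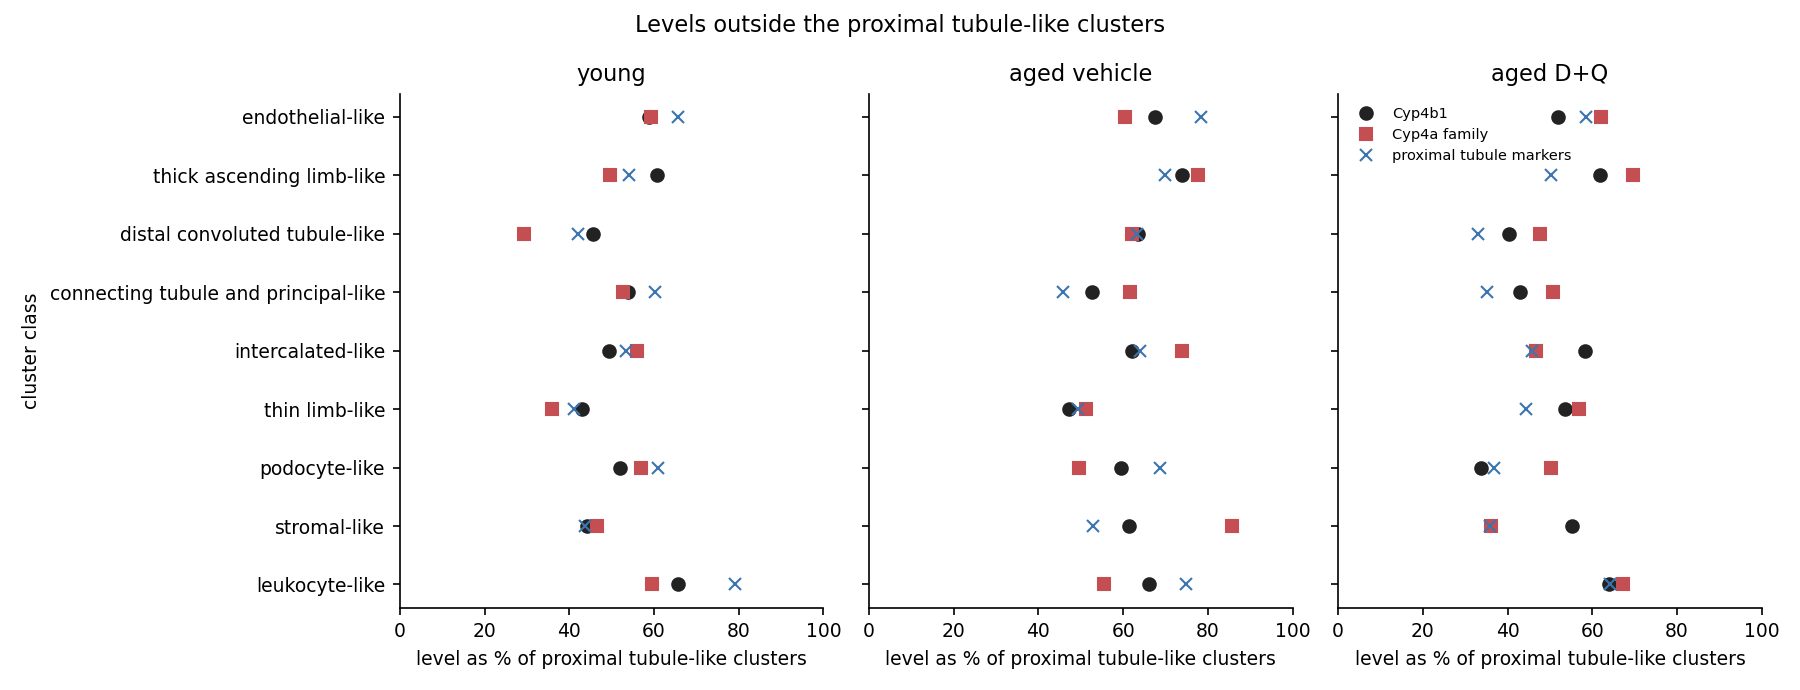
The level of Cyp4b1, the Cyp4a family and summed proximal tubule markers in 9 other cluster classes is plotted as a percentage of the level in proximal tubule-like clusters of the same library. In young the Cyp4a family spans 29.4% to 59.5%, Cyp4b1 43.0% to 65.6% and the markers 41.2% to 79.1%.

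Cyp4a10 was detected in 38.2% of the 573 young clustered cells that kept a Cyp4a14 count after thinning (34.2 to 42.3) and in 20.2% of the 4574 without (19.0 to 21.4). For Cyp4a31 these shares were 26.9% and 19.3%. Cyp4a12a was at 1.40% and 2.58%, with overlapping intervals. In aged D+Q cells Cyp4a10 was detected in 32.4% of 188 cells with Cyp4a14 and 13.2% of the rest, and in aged vehicle in 12 of 55 and 449 of 4088. Cells of a library are not replicates, and these are descriptions.

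Most young cells with Cyp4a14 had a single count, so the split was repeated on a second thinning draw, chosen after seeing the data. Cyp4a10 was then found in 20.5% of young cells with no Cyp4a14 count, 36.6% of those with exactly 1 (31.8 to 41.7) and 44.3% of those with 2 or more (37.4 to 51.5). Endothelial-like cells of the young library showed the same direction, with Cyp4a10 in 13.9% of 584 cells without Cyp4a14 (11.2 to 16.9) and 29.6% of 54 cells with it (18.0 to 43.6). The joint presence of Cyp4a10 and Cyp4a14 was therefore seen in endothelial-like as well as proximal tubule-like cells.

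Some genes of the fatty acid receptor pathway were likewise found more often beside Cyp4a14. Ehhadh, a peroxisomal enzyme that shortens dicarboxylic acids, was found in 44.2% of young proximal tubule-like cells with Cyp4a14 and 25.2% of those without. Pdk4, which restrains glucose oxidation, was found in 9.60% and 2.56%, and in 6.84% and 2.89% on the second draw. Ppara itself was at 26.2% and 24.3% in young, with overlapping intervals. On the second draw Ppara was lower in aged D+Q cells with Cyp4a14, at 18.3% (13.4 to 24.2) against 26.3% (25.1 to 27.6). In aged vehicle it was 16.1% (7.62 to 28.3) and 26.5% (25.2 to 27.9), with overlap. In young endothelial-like cells Ehhadh was found in 29.6% with Cyp4a14 (18.0 to 43.6) and 14.7% without (12.0 to 17.9). In aged vehicle proximal tubule-like cells of the second draw it was 10.7% of 56 (4.03 to 21.9) and 9.49% (8.61 to 10.4), with overlap. In aged D+Q it was 26.3% (20.5 to 32.7) and 19.1% (18.1 to 20.2). Ehhadh and Cyp4a14 were both leading genes of cluster 8, and the part of cluster mix was not tested. Of the 30 listed genes of PPARA and its classical targets, 7 had separate, higher intervals in young proximal tubule-like cells with Cyp4a14 and 0 had separate, lower ones. The same count was 1 higher and 0 lower in aged vehicle, and 2 higher and 1 lower in aged D+Q. Over all genes found in at least 30 cells of the second draw, 2.28% were higher and 1.36% lower in young, 0.914% and 0.275% in aged vehicle, and 1.45% and 0.860% in aged D+Q. The counts of listed genes came from the first draw with no limit on cells, so these shares are not an exact match.

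**Figure D5:**
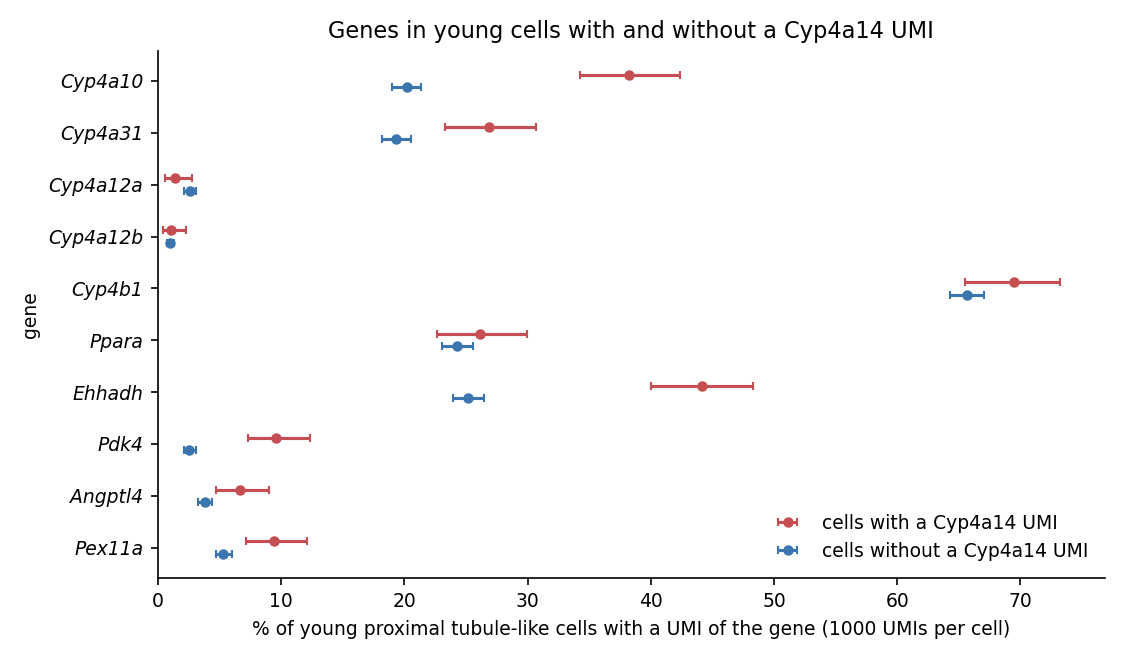
For young clustered proximal tubule-like cells thinned to 1000 counts, points give the percentage with a count of each gene, in cells with and without Cyp4a14, with exact 95% intervals. Members come first, and Ppara and 4 of its targets, chosen after their values were seen, follow. Cyp4a10 is at 38.2% against 20.2%.

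In gated cells 9 of the 26 measured genes of PPARA and its classical targets were at least 1.5-fold lower in aged vehicle than in young and 0 were higher, beside 8.35% and 12% of all genes. Their median log2 ratio was -0.27, beside 0.08 over all genes. Pdk4 had a log2 ratio of -2.76, Ehhadh -1.86 and Acot1, an acyl-CoA thioesterase, -1.47. Ppara was 288 CPM in young and 314 in aged vehicle, a log2 ratio of 0.12 (-0.08 to 0.32). For D+Q against vehicle 4 of the 26 were higher, among them Ehhadh at 1.23 and Pdk4 at 1.29, and 0 were lower, beside 6.91% and 10.8% of all genes.

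Of the steps that follow omega-hydroxylation, 3 of 16 measured genes were lower in aged vehicle than in young and 0 higher, beside the same 8.35% and 12% of all genes. They were Ehhadh, Acsl1 at -0.87 and Acaa1b at -0.74. The 4 genes that pass electrons to P450 enzymes stayed within 1.5-fold. Por, the reductase, gave 0.20 (-0.04 to 0.44). Of the other 13 CYP4 genes listed, 2 of the Cyp4f group, Cyp4f17 and Cyp4f13, were measured, at 0.27 and -0.20. Among 6 measured genes of arachidonic acid supply and its other routes, 1 was higher in aged vehicle and 0 lower, beside 12% and 8.35% of all genes. It was the epoxygenase-family gene Cyp2j13, at 1.07, and nothing is read from that count.

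Genes with a sex bias in mouse kidney were examined because Cyp4a12a is male-biased and Cyp4a14 female-biased there. Of 4 measured female-biased genes, 3 were higher in aged vehicle than in young, where 12% of all genes were: Slc7a12 at 4.80, Prlr at 1.57 and Cyp2a4 at 1.53. Of 10 male-biased genes, 1 was higher, Cyp7b1 at 0.99, and 0 were lower, close to the 12% and 8.35% of all genes. The other measured female-biased gene, Slc22a19, was at -0.33 (-0.63 to -0.02). The ratio of Slc7a12 rested on a young level of 3.28 CPM. Cyp4a14 was lower in aged vehicle, and its relation to sex bias was not tested. In clustered cells 3 of 5 female-biased genes were higher and 1 was lower, beside 4.79% and 3.28% of all genes.

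Likeness of pattern was measured as Pearson's r of log2 CPM over 15 points, which are 5 gated cell groups in each of the 3 libraries. The points share libraries and background RNA, and 1 group is the failed thick ascending limb gate. Upk3a, a uroplakin of the urothelium, was most like Cyp4a14 (r = 0.90), followed by Ehhadh, Cyp4a10, Mogat2 and Hacl1. Urothelium-like cells numbered 152, 15 and 77 in young, aged vehicle and aged D+Q. For Cyp4a10 the nearest were Angptl4 (r = 0.89), Cyp4a14, Flvcr2, Gm38882 and Acaa1b. For Cyp4a12a they were Aldh2 (r = 0.90), C2, Acat3, Cyp2a4 and Cyp2d12. For Cyp4b1 they included Lrp2 (r = 0.94), Slc22a18, Ces1f and Slc6a20b. Lrp2 is a marker of the proximal tubule gate that made some of these groups, so its likeness was partly set in advance.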

How the data were processed

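Whole-number counts per gene and barcode were deposited by the authors for each library; per the submitters' processing notes the builds GRCm39 and mm10 were named, without roles, and the aligner was not given there. Sequences and identities came from GENCODE M21 on GRCm38. Barcodes over 50% mitochondrial counts were set aside. Because Scrublet's automatic threshold called 0 to 2 barcodes per library, the highest doublet scores were left out instead, a share of 0.8% for every 1000 barcodes in the library. Proximal tubule-like cells needed at least 3 counts from at least 2 markers and at most 1 from the markers of any other class. Clusters used Leiden at resolution 1 on 2000 variable genes and 30 components, without the 7 genes (scanpy 1.11.5). Counts were summed per library and divided by the cells' total (CPM). With 1 library per group no test across groups was possible. Ratios had 0.5 counts added, with exact conditional binomial intervals, and were tested on simulated data. TMM factors for an alternative scaling came from edgeR 4.0.16. Likeness was computed on log2 of CPM plus 1. Members and gene lists were chosen with earlier results of these data known. Genes named from lists were up to 4 measured genes with the largest absolute ratio of aged vehicle to young, and 5 most alike genes for 4 members; some genes that this rule names are not reported here. Ppara and the PPARA targets in the plot of co-detection were added after values were seen.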

Additional observations from a re-analysis of the deposited data

Results flagged for a closer look

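Barcodes set aside for over 50% mitochondrial counts held Cyp4a transcripts that no comparison used. The family sum was 349 CPM in 385 young barcodes (311 to 390), 395 in 82 aged vehicle barcodes (301 to 509) and 355 in 149 aged D+Q barcodes (293 to 427). All 3 lie above the level that 3 counts would give in those barcodes, which was 3.36, 20.1 and 9.35 CPM. Unlike in the cells kept, the family intervals of the 3 libraries overlapped, but single members differed. Cyp4a12a was 35.9 CPM in young (24.5 to 50.7). It was higher in aged vehicle, at 134 (81.7 to 207), and in aged D+Q, at 153 (113 to 202). Cyp4a10 was lower in aged D+Q, at 87.2 (58.0 to 126), than in young, at 166 (140 to 195). Cyp4a14 intervals overlapped, at 24.7, 20.1 and 24.9 CPM in young, aged vehicle and aged D+Q, from 22, 3 and 8 counts.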

How the results depend on the processing

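No paired analysis was possible because each group is 1 library, and for the same reason no library could be left out. The Cyp4a family sum, the counts of members 1.5-fold apart and the single-gene ratios were recomputed under 11 other settings of the design and 4 chosen after seeing the data. The family ratio of aged vehicle to young (-0.96) moved outside its counting interval when gated cells of the S1 side were used, to -0.67, and D+Q against vehicle (0.40) to 0.18 there. D+Q against young (-0.56) moved to -0.76 in clusters under 25% mitochondrial counts. For D+Q against vehicle, 1 member instead of 2 was 1.5-fold apart with gates on thinned counts, with clusters, with all cells kept and with clusters under 25% mitochondrial counts. The counts of 4 for the other comparisons stayed within 1.5 times. Of 315 single-gene values, 292 stayed in the counting interval and 0 with an interval clear of 0 changed sign. Dropping the abundance limit was among the settings and cannot move a ratio, so 21 of the 292 were fixed in advance. Cyp4a14 in aged vehicle against young ran from -4.72 to -3.15 and Cyp4a12a from 1.19 to 1.71. Cyp4a31 ran from -0.91 to -0.09, the latter on the S1 side of gated cells. The cause was not tested for any of these. Cyp4a12b in that comparison changed sign in 5 of 15 settings. Depth limits Cyp4a32 and Cyp4a12b, at most 25 counts per library in gated cells.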
